A study of Homo sapiens with 12 samples.

Results

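The high-affinity IgE receptor and the enzymes and adaptors that sit next to it in mast cells were examined as 10 genes of the 58381 in the expression tables. They were matched by gene symbol: the receptor chains FCER1A, MS4A2 and FCER1G, the kinases LYN, FYN, SYK and BTK, and the adaptors LAT, LAT2 and LCP2. All 10 were found, and 15944 genes in all, these 10 included, were abundant enough to be tested.

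RNA had been sequenced from sublines of HMC-1, an established line of human mast cell leukemia, after 72 h in culture, and no treatment is named for any group. HMC-1.1 cells carry the V560G-KIT mutation, HMC-1.2 cells carry V560G and D816V together, and HMC-1.3 cells carry D816V alone, because V560G had been reverted in HMC-1.2 by CRISPR/Cas9 editing. Of HMC-1.3, 2 single clones were sequenced, called clone 1 and clone 2 here, so there were 4 groups of 3 libraries. The 3 libraries of a group came from triplicate wells, so p-values measure the spread between wells, which may be technical, and each HMC-1.3 group stands for 1 clone.

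In mast cells the receptor is assembled from an alpha chain that binds IgE (FCER1A), a beta chain that amplifies the signal (MS4A2) and a pair of gamma chains (FCER1G), which signal through cytoplasmic tyrosine motifs called ITAMs and are shared with several other Fc receptors. When bound IgE is crosslinked by antigen, the Src-family kinase LYN phosphorylates these motifs, SYK docks on them, and SYK then phosphorylates the membrane adaptors LAT and LAT2. LCP2 (SLP-76) and the Tec-family kinase BTK join the LAT complex and activate phospholipase C gamma, while FYN drives a parallel route to phosphoinositide 3-kinase. The outcome is calcium entry, release of granules and synthesis of mediators.

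Library totals ranged from 29225900 to 43181402 counts. Of 9 mast cell markers, 7 were over 1 FPKM in every group, among them KIT at 356 to 450 FPKM and GATA2 at 213 to 240 FPKM as group means. Other mast cell markers moved with the groups, and the proteases TPSAB1, TPSB2 and CPA3 were called in each comparison with HMC-1.2. The tryptase TPSAB1 had 592 FPKM in HMC-1.2 and 29.4 to 44.2 elsewhere, and its near-identical relative TPSB2, with which it can share reads, had 96.6 against 35 to 40.7. The carboxypeptidase CPA3 had 3.31 FPKM in HMC-1.2 and 7.52 to 10.9 elsewhere. The proteases CMA1 and CTSG were under 1 FPKM in every group. Defining markers of T cells, monocytes, neutrophils and B cells such as CD3E, CD14, MPO and MS4A1 were at or near 0 FPKM. CD2 moved with the groups, at 3.40 FPKM in HMC-1.1 and 3.33 in clone 1 against 0.133 in HMC-1.2 and 0.883 in clone 2, while CD3D, CD3E and CD3G were under 1 FPKM throughout. Of 4 basophil and eosinophil markers, CLC and PRG2 were expressed, and the sum of the 4 was 394 to 415 FPKM in HMC-1.2 libraries and 58.9 to 116 FPKM elsewhere, with CCR3 at or near 0. The part of these markers in the results was not tested. One library each of HMC-1.2 (replicate 1), clone 1 (replicate 3) and clone 2 (replicate 1) was labelled as resent, and without these 3 the same numbers of the 10 genes were called in each comparison.

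Reference sequence before a RefSeq start was read for the alpha and gamma chains, because these 2 subunits had the opposite pattern across the clones. FCER1A lies at chr1:159289714-159308224 and FCER1G at chr1:161215234-161220699 (GRCh38, Gencode 44), both on the plus strand. The RefSeq promoter table (GRCh38.p14) has 250 bases before each start. The stretches below end where an annotated exon begins, and span chr1:159302186-159302305 for FCER1A and chr1:161215114-161215233 for FCER1G. The 2 stretches are unlike in place. That of FCER1A lies inside the Gencode span of the gene, before a RefSeq start at 159302336. That of FCER1G ends just before the Gencode span begins. Capitals mark a GATA-type motif, searched on both strands as the letters GATA with A or T before them and A or G after them.

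FCER1A: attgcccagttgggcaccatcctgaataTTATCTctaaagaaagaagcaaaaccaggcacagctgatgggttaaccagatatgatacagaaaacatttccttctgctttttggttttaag

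FCER1G: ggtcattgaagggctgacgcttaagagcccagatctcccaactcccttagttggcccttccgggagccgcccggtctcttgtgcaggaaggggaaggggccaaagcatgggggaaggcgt

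The FCER1A window held 1 GATA-type motif, on the minus strand and beginning 122 bases before the RefSeq start, and the FCER1G window held 0. Among 35116 RefSeq promoters, 22.3% held such a motif in the same 250 bases. The MS4A2 window, of which only 2 bases lie outside annotated exons, also held 1, beginning 54 bases before its start. BTK had windows with 0 and 3, FYN had windows with 0 and 1, and those of LCP2, SYK and LAT held 0. The ETS-type letters GAGGAA, in 23.6% of promoters, were in neither the FCER1A nor the FCER1G window. A match describes the letters only. LYN and LAT2 had no entry in the promoter table.

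The level of each gene is given first as FPKM, which corrects for transcript length and so can be compared between genes. Single libraries spanned 0.06 to 1185 FPKM. LAT was the highest in every group, at 934 to 1159 FPKM as group means, with BTK and LCP2 next in either order, and the alpha and beta chains were low in every group, with no library above 1.27 FPKM. The gamma chain and LAT2 moved most between groups, which the plot of levels by library shows.

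**Figure D1:**
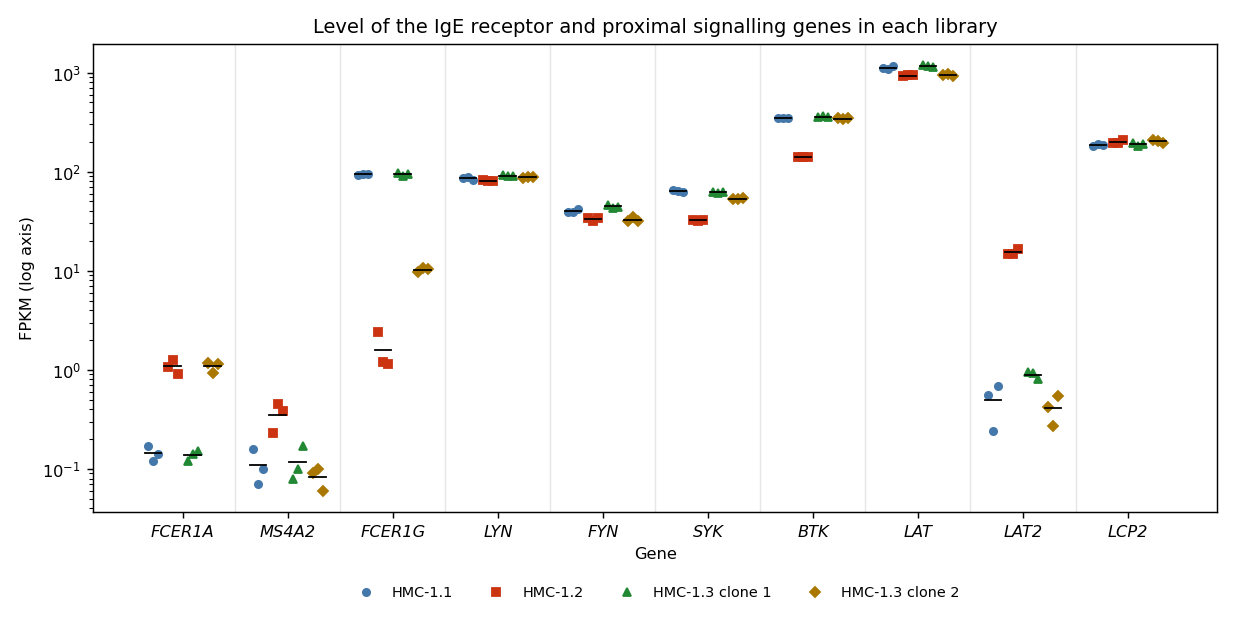
FPKM of the 10 genes on a log axis, 1 point per library, with colour and shape for the group and a black bar for the mean of 3 libraries. FCER1G lies near 94 FPKM in HMC-1.1 and clone 1, near 10 in clone 2 and between 1.14 and 2.43 in HMC-1.2, whereas LAT2 is above 14 FPKM only in HMC-1.2.

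FCER1G, the gamma chain, had the widest range. Its levels were 92.0, 95.45 and 95.8 FPKM in the HMC-1.1 libraries, and 97.79, 91.14 and 94.2 FPKM in those of clone 1. Clone 2 had 9.81, 10.71 and 10.31 FPKM. HMC-1.2 had 2.43, 1.21 and 1.14 FPKM, from only 32, 14 and 12 counts. The ranges of HMC-1.1 and clone 1 overlapped, and those of clone 2 and HMC-1.2 lay apart from each other and from both. From the counts, FCER1G was 54.2-fold higher in clone 1 than in HMC-1.2 (log2 fold change 5.76 ± 0.12 SE; edgeR's quasi-likelihood test, Benjamini-Hochberg adjusted p = 2e-16). In clone 2 it was 5.84-fold higher than in HMC-1.2 (log2 2.55 ± 0.17 SE, same test, adjusted p = 8.4e-10). HMC-1.1 exceeded HMC-1.2 by 53.3-fold.

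The 2 clones therefore differed in the gamma chain although both rose against the parental line. Clone 1 exceeded clone 2 by 9.28-fold (log2 difference 3.21 ± 0.08 SE, edgeR's quasi-likelihood test, adjusted p = 2.2e-14). Between clone 1 and HMC-1.1 the log2 difference was 0.02, with a 95% confidence interval of -0.12 to 0.16. The HMC-1.2 library with the highest FCER1G value was the one labelled resent, and leaving it out gave log2 fold changes of 6.22 for clone 1 and 3.02 for clone 2.

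FCER1A, the alpha chain that binds IgE, was low throughout and split the clones the other way. HMC-1.2 had 1.08, 1.27 and 0.91 FPKM and clone 2 had 1.18, 0.94 and 1.15 FPKM. HMC-1.1 had 0.17, 0.12 and 0.14 FPKM and clone 1 had 0.12, 0.14 and 0.15 FPKM. Counts per library were 20 to 37 in HMC-1.2 and 34 to 46 in clone 2, against 4 to 6 in HMC-1.1 and clone 1. FCER1A was 7.4-fold lower in clone 1 than in HMC-1.2 (log2 fold change -2.89 ± 0.35 SE, edgeR's quasi-likelihood test, adjusted p = 2e-06), with no overlap of the libraries. In clone 2 the log2 difference from HMC-1.2 was 0.06, with a 95% confidence interval of -0.5 to 0.62, and the libraries overlapped. Clone 1 against clone 2 gave a log2 difference of -2.95 ± 0.35 SE (same test, adjusted p = 2.2e-06). FCER1A passed the filter on low counts only through HMC-1.2 and clone 2, where it is high, and by limma on log2(FPKM + 1), a scale that compresses such low values, the log2 fold change of clone 1 from HMC-1.2 was -0.873.

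MS4A2, the beta chain (chr11:60088261-60098467, plus strand), was the least abundant of the 10 genes. It reached 0.23, 0.45 and 0.38 FPKM in HMC-1.2, from 18 to 23 counts per library. In the other 9 libraries it was between 0.06 and 0.17 FPKM, from 3 to 10 counts. Against HMC-1.2 it was 3.21-fold lower (clone 1) and 4.19-fold lower (clone 2; edgeR's quasi-likelihood test, adjusted p = 0.0014 and 0.00043). It passed the filter only through HMC-1.2, and on the log2(FPKM + 1) scale, where differences of such low values are compressed, it was not called. Among HMC-1.1, clone 1 and clone 2 the libraries overlapped, and the log2 difference of clone 1 from clone 2 was 0.39 (95% confidence interval -0.62 to 1.39).

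So the 3 chains of one receptor had 3 different orders across the groups. Those of the alpha and beta chains rest on few counts, and both genes passed the filter only through groups where they are high. HMC-1.2 was highest for the beta chain and lowest for the gamma chain. Clone 2 overlapped HMC-1.2 in the alpha chain, and clone 1 overlapped HMC-1.1 in each of the 3. In RNA from whole cultures, fewer cells with a transcript and less transcript per cell cannot be told apart.

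Among the kinases, SYK (chr9:90801787-90898549, plus strand) and BTK (chrX:101349338-101390796, minus strand) were higher in each group than in HMC-1.2. SYK had 32.54, 31.81 and 32.79 FPKM in HMC-1.2 and 63.06, 61.15 and 62.06 FPKM in clone 1. Clone 2 had 52.97, 53.36 and 53.93 FPKM, and HMC-1.1 had 65.47, 63.77 and 62.6 FPKM, so HMC-1.2 was lowest and overlapped no other group. The rise was 1.87-fold in clone 1 (log2 0.90 ± 0.03 SE, edgeR's quasi-likelihood test, adjusted p = 4.7e-14) and 1.64-fold in clone 2 (log2 0.71 ± 0.03 SE, adjusted p = 1.1e-12). Clone 2 lay below clone 1 in every library, by 1.14-fold, which passed the test but not the 1.5-fold limit.

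BTK had 139.2, 140.99 and 140.36 FPKM in HMC-1.2, against 337.59 to 361.94 FPKM in the other 9 libraries. It rose 2.47-fold in clone 1 (SE 0.03 on the log2 scale, edgeR's quasi-likelihood test, adjusted p = 3.7e-16), 2.38-fold in clone 2 and 2.4-fold in HMC-1.1. The clones differed by 0.05 on the log2 scale (95% confidence interval 0 to 0.11). Of the 3 genes that rose, BTK had the rise most alike in size across the groups.

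LYN and FYN, the Src-family kinases, stayed within the 1.5-fold limit in all 6 comparisons. LYN (chromosome 8) ranged from 79.64 to 91.62 FPKM over the 12 libraries, and its log2 differences from HMC-1.2 were 0.11 (clone 1), 0.10 (clone 2) and 0.05 (HMC-1.1). FYN (chr6:111660332-111873452, minus strand) was at 44.7 ± 1.78 FPKM in clone 1, 40.1 ± 1.65 in HMC-1.1, 33.3 ± 1.28 in HMC-1.2 and 32.6 ± 1.83 in clone 2 (SD, n = 3 each). Its log2 difference of clone 1 from HMC-1.2 was 0.35 ± 0.04 SE (edgeR's quasi-likelihood test, adjusted p = 3.3e-07). Clone 2 overlapped HMC-1.2 in FPKM. In counts scaled by library size clone 2 lay below HMC-1.2 without overlap, at a log2 difference of -0.09 (same test, adjusted p = 0.059).

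The membrane adaptors went separate ways. LAT2 (NTAL, chr7:74199652-74229834, plus strand) is a relative of LAT in function that is expressed in mast cells and B cells. It had 14.63, 14.91 and 16.56 FPKM in HMC-1.2. Clone 1 had 0.95, 0.92 and 0.80 FPKM, clone 2 had 0.42, 0.27 and 0.54, and HMC-1.1 had 0.56, 0.24 and 0.68. It fell 22.4-fold in clone 1 (log2 -4.48 ± 0.18 SE, edgeR's quasi-likelihood test, adjusted p = 1.6e-12), 35.7-fold in clone 2 and 32.4-fold in HMC-1.1. Every library of HMC-1.2 had 606 counts or more, and no other library had more than 45.

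Clone 1 against clone 2 gave a log2 difference of 0.67 for LAT2 (95% confidence interval 0.09 to 1.25; edgeR's quasi-likelihood test, adjusted p = 0.051), which was not called. DESeq2 called it (adjusted p = 0.034). The FPKM ranges of the clones did not overlap but the CPM ranges did, the library of clone 1 with the fewest counts, 22, having the highest FPKM of its group.

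LAT (chr16:28984826-28990784, plus strand), the adaptor that nucleates the phospholipase C gamma complex, was abundant everywhere. Its FPKM was 934 ± 10.9 in HMC-1.2, 949 ± 20.3 in clone 2, 1115 ± 41.9 in HMC-1.1 and 1159 ± 24.6 in clone 1 (SD, n = 3 each). The log2 difference from HMC-1.2 was 0.30 in clone 1 and 0.02 in clone 2, so neither reached 1.5-fold. The locus overlaps other annotated transcripts. A long noncoding RNA on the same strand that touches its exons had 0.905% of the counts LAT had, and the split of reads between them was an estimate. LCP2 (chr5:170246233-170297815, minus strand), the cytosolic partner of LAT, ranged from 183 to 207 FPKM over the 12 libraries. Its log2 differences from HMC-1.2 were -0.09 (clone 1), 0.01 (clone 2) and -0.10 (HMC-1.1).

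In counts of genes, where a call needed both an adjusted p below 0.05 and a change of more than 1.5-fold, 6 of the 10 were called between clone 1 and HMC-1.2. FCER1G, SYK and BTK were higher and FCER1A, MS4A2 and LAT2 lower. FCER1A and MS4A2 had been kept by the filter only through groups in which they are high, HMC-1.2 among them, so their lower calls add no support to these counts. Of all genes tested, 20.0% were called in that comparison, 11.8% higher and 8.18% lower. Between clone 2 and HMC-1.2, 5 were called, 3 higher and 2 lower, the alpha chain being the one that dropped out, against 16.5% of all genes, 7.98% higher and 8.51% lower. Between HMC-1.1 and HMC-1.2, 6 were called, 3 higher and 3 lower, as in clone 1, against 17.6% of all genes, 10.1% higher and 7.52% lower. These 3 comparisons share the HMC-1.2 libraries. The median log2 fold change of the 10 genes was 0.20, 0.04 and 0.12 in the same order, beside 0.01, 0 and 0.01 over all genes tested.

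**Figure D2:**
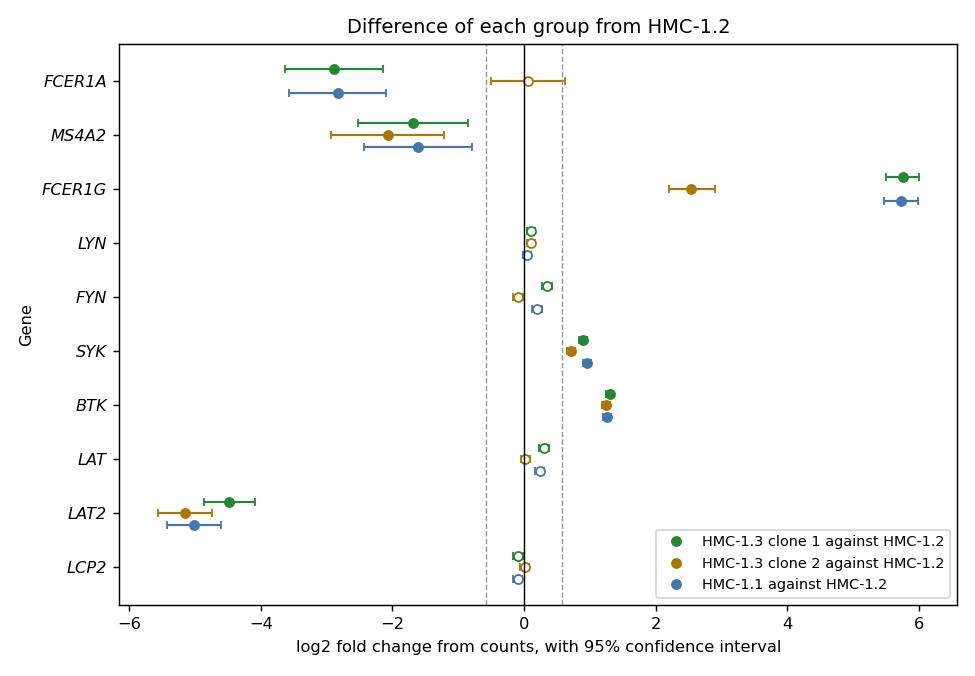
Log2 fold change of the 10 genes in clone 1, clone 2 and HMC-1.1, each against HMC-1.2. Values come from counts, with bars for the 95% confidence interval. Filled points were called, open points were not, and dashed lines mark 1.5-fold. FCER1A of clone 2 sits at 0.06 while the other 2 groups sit at -2.89 and -2.83.

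Away from HMC-1.2 the groups were closer. Clone 1 and HMC-1.1, which share neither KIT mutation, had 0 of the 10 genes called by edgeR's quasi-likelihood test and 0 by DESeq2, where 1.01% of all genes were called by edgeR, 0.671% higher and 0.339% lower. Of the 10, 2 (FYN and SYK) had an unadjusted p under 0.05 in that comparison, and only FYN an adjusted one, at 1.11-fold (edgeR's quasi-likelihood test, adjusted p = 0.0078). Clone 2 differed from HMC-1.1 in 2 genes, with FCER1A 7.43-fold higher and FCER1G 9.13-fold lower, against 8.19% of all genes, 3.04% higher and 5.15% lower. The 2 clones, which carry the same KIT genotype, differed from each other in the same pair of genes. There 12.6% of all genes were called, 8.38% higher in clone 1 and 4.25% lower. FCER1A had been kept by the filter only through HMC-1.2 and clone 2, where it is high. Its calls against clone 2 in these comparisons therefore add no support to the counts. With 1 clone in each group, a difference between clones and one between cultures of a clone cannot be told apart.

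**Figure D3:**
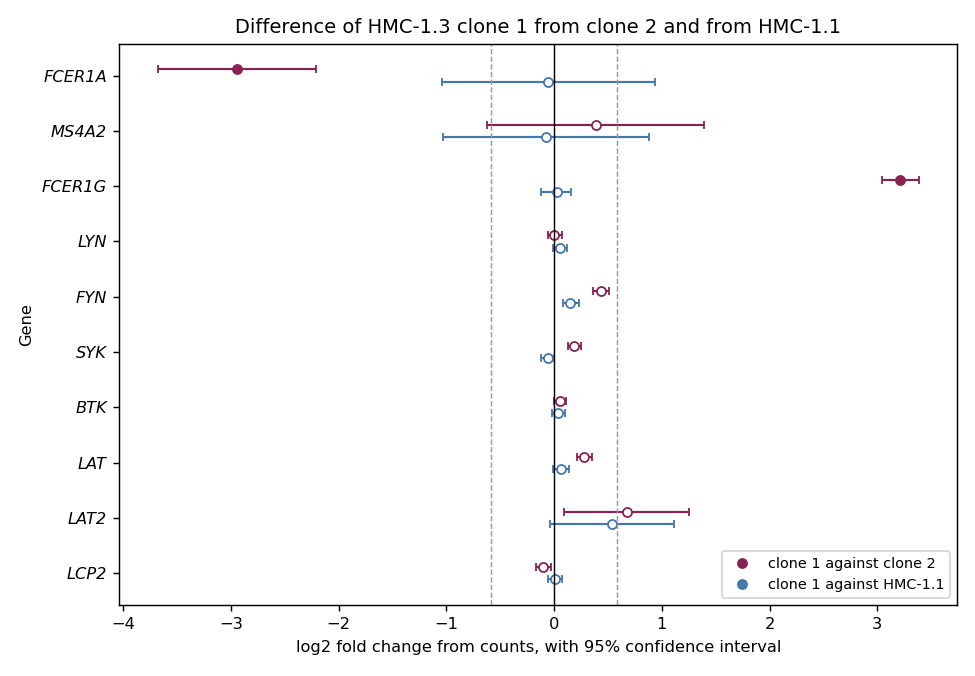
Log2 fold change of clone 1 against clone 2 and against HMC-1.1 for the 10 genes, from counts, with 95% confidence intervals. Filled points were called and dashed lines mark 1.5-fold. FCER1A at -2.95 and FCER1G at 3.21 are the only filled points, and both belong to the comparison of the clones.

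Genes with a pattern like that of FCER1G were looked for over the 12 libraries, as the highest Pearson r of log2 CPM, the counts scaled by library size, among genes of at least 1 CPM on average. FCER1A and MS4A2 were too low for this. The 3 nearest were SH3PXD2B (r = 0.9955), a scaffold protein of podosomes, OGDHL (r = 0.9952), a mitochondrial dehydrogenase subunit, and RASGRP4 (r = 0.995). The 12 points fall into 4 groups and share their libraries, so r describes the order of the groups. RASGRP4, a mast cell activator of RAS, had mean FPKM of 6.21 (HMC-1.1), 6.12 (clone 1), 1.14 (clone 2) and 0.407 (HMC-1.2), so HMC-1.1 and clone 1 lay highest and HMC-1.2 lowest, as for FCER1G.

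Chromosomal neighbours were examined for all 10 genes, and those of FCER1G, LAT2, MS4A2 and BTK are given, chosen after their values had been seen. Of the 5 tested genes on each side of FCER1G, 0 were higher and 2 lower in clone 1 than in HMC-1.2 libraries, and the highest log2 fold change among them was 0.51, where 11.8% of all genes were called higher and 8.18% lower. The 10 neighbours of LAT2 included 1 lower gene in clone 1. EIF4H, 2.5 kb before LAT2, and RFC2, 1.7 kb after it, had log2 fold changes of -0.14 and -0.16. Of the 10 neighbours of MS4A2, 2 were lower than in HMC-1.2 in each of the other 3 groups, and both lie before it. Over all genes tested, 8.18% (clone 1), 8.51% (clone 2) and 7.52% (HMC-1.1) were called lower. MS4A3, a gene of the same family that ends 17.1 kb before MS4A2, had log2 fold changes of -2.03 (clone 1), -2.49 (clone 2) and -2.46 (HMC-1.1). TCN1, which encodes a vitamin B12 binding protein, had -1.73, -2.54 and -2.32.

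The pathway around the receptor was described with 6 lists of genes. Their counts stand beside 11.8% of all genes called higher and 8.18% lower for clone 1 relative to HMC-1.2, and 7.98% higher and 8.51% lower for clone 2. The closest relatives of the member kinases, 12 other Src-, SYK- and Tec-family genes, were mostly not expressed, and 5 were tested. Among these, 0 were higher and 2 lower in clone 1 relative to HMC-1.2, and 0 higher and 3 lower in clone 2. TEC, which shares its family with BTK, fell while BTK rose, with 10.1 FPKM for HMC-1.2, 4.35 for clone 1 and 4.07 for clone 2. TXK, another Tec-family kinase, fell from 3.28 to 1.12 and 1.70 FPKM, respectively. YES1, a Src-family kinase, was lower only in clone 2, at 13.8 against 27.2 FPKM.

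The signal relay downstream of LAT, 29 genes for phospholipases, adaptors, exchange factors and calcium channels, was tested in full. Relative to HMC-1.2, 2 of them rose and 4 fell in clone 1, and 3 rose and 3 fell in clone 2. These 6 of 29 in each clone lie near the 20.0% and 16.5% of all genes called in either direction. RASGRP4 rose, with log2 fold changes of 3.99 ± 0.13 SE in clone 1 and 1.56 ± 0.15 SE in clone 2. ITPR3, an inositol trisphosphate receptor, started from a low 0.447 FPKM in HMC-1.2 and had log2 fold changes of -4.83 ± 0.56 SE and -3.43 ± 0.47 SE. Its mean was 4.01 CPM in HMC-1.2, 0.136 CPM in clone 1 and 0.349 CPM in clone 2. Of these groups only HMC-1.2 was well above the filter on low counts, at 0.274 CPM, so depth limits the size of these changes. PRKCQ, a protein kinase C isoform, fell from 4.05 FPKM to 1.59 (clone 1) and 0.653 FPKM (clone 2). The median of the list was -0.19 in clone 1 and -0.10 in clone 2.

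Negative regulators of the receptor were 22 genes, of which 18 were tested. Relative to HMC-1.2, 2 rose and 6 fell in clone 1, 0 rose and 8 fell in clone 2, and 0 rose and 6 fell in HMC-1.1. INPP5D (SHIP-1), the lipid phosphatase that opposes phosphoinositide 3-kinase, fell from 128 FPKM to 25.5 (clone 1) and 30.0 FPKM (clone 2), with log2 fold changes of -2.58 and -2.12. UBASH3B (STS-1), a phosphatase that acts on SYK-family kinases, fell from 62.1 FPKM to 14.4 and 11.7. DOK3, an inhibitory adaptor, fell from 40.9 FPKM to 14.2 and 3.61. The list median was -0.08 in clone 1 and -0.31 in clone 2.

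Related receptors and ITAM adaptors were 14 genes, 8 of them tested. Relative to HMC-1.2, 0 rose and 6 fell in clone 1, and 0 rose and 4 fell in clone 2. TYROBP (DAP12), a signalling adaptor with an ITAM like FCER1G, went opposite to it relative to HMC-1.2. It fell from 118 FPKM to 32.1 (clone 1) and 15.9 FPKM (clone 2), with log2 fold changes of -1.93 ± 0.07 SE and -3.00 ± 0.08 SE. Between the clones it went the same way as FCER1G, with clone 1 above clone 2 by 1.07 ± 0.08 SE on the log2 scale. HCST (DAP10), the adaptor encoded beside TYROBP, fell from 46.2 FPKM to 16.9 and 7.61. CLEC6A, a lectin that signals through FCER1G, had 1.12 FPKM (HMC-1.2), 0.71 (clone 1) and 1.29 (clone 2), and was called lower only in clone 1.

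Of 10 transcription factors tied to these genes, 0 were higher and 2 lower in each clone, also near the share over all genes in either direction. CEBPA, a myeloid factor, fell from 29 FPKM to 5.92 (clone 1) and 6.20 FPKM (clone 2). ZFPM1 (FOG-1), the cofactor of GATA1, fell from 2.58 FPKM to 1.74 and 2.01. Without HMC-1.2 replicate 2, 1 of these factors was called in clone 1. Of 13 genes of granule exocytosis, 1 was called in each clone, and it was RAB27B, a small GTPase of granule transport, in opposite directions. RAB27B had 10.0 FPKM (HMC-1.2), 5.11 (clone 1) and 15.1 (clone 2). The call in clone 2 was lost when tested against 1.5-fold and by limma on log2(FPKM + 1), and that in HMC-1.1 when tested against 1.5-fold. The log2 difference between clones was -1.59 ± 0.05 SE (edgeR's quasi-likelihood test, adjusted p = 1.2e-13).

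**Figure D4:**
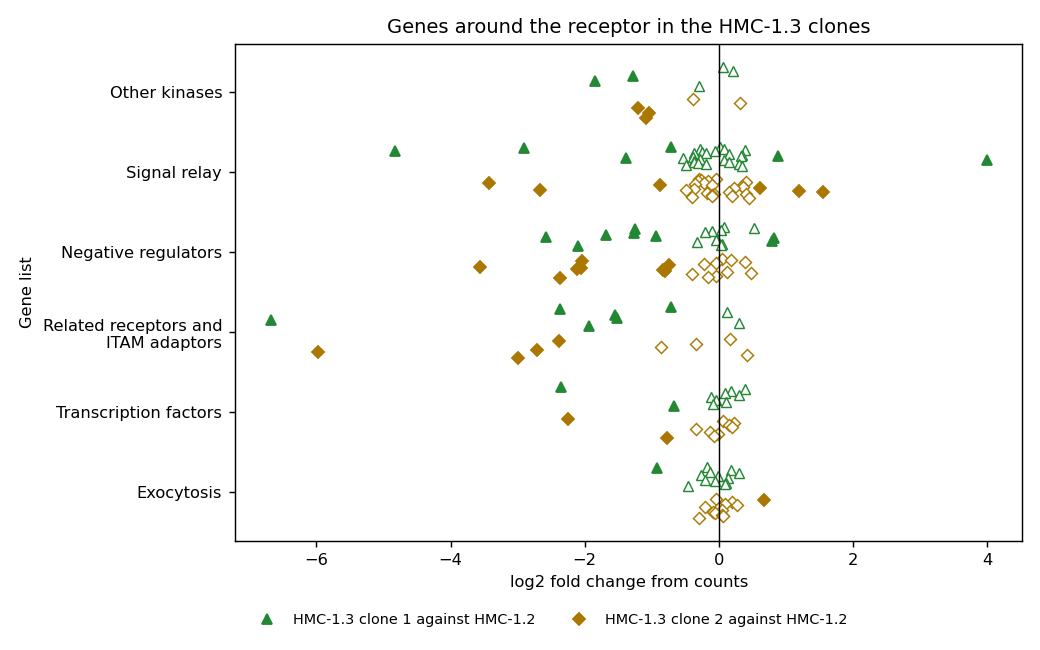
Log2 fold change from counts of each tested gene of the 6 lists, in clone 1 and clone 2 against HMC-1.2, 1 point per gene, filled where called. Most called points lie to the left of 0. The leftmost points are LGALS3, a lectin that binds IgE, which did not meet the naming rule of a call at a mean of at least 1 CPM. The rightmost point is RASGRP4 in clone 1 at 3.99.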

How the data were processed

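Expected counts per gene, not normalized, and FPKM were used as the authors deposited them. According to the study's methods and the submitters' processing notes, read pairs from a stranded poly(A) library were trimmed with cutadapt 2.10, aligned to hg38 with STAR 2.5.3, and counted with RSEM 1.3.0. RSEM shares reads that match several genes, and 7.39% of the counts are not whole. FPKM, deposited by the authors, is scaled for transcript length and library size, and the length RSEM uses depends on the isoform mix.

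All 12 libraries were mapped to groups by their labels. Counts were rounded and tested with edgeR 4.0.16 (quasi-likelihood, TMM factors 0.974 to 1.024, 4 groups in 1 model, filterByExpr at a minimum count of 10) in R 4.3.3, and p-values were adjusted by Benjamini-Hochberg over the 15944 genes of each comparison. DESeq2 1.42.0 and limma 3.58.1 on log2(FPKM + 1) were alternatives, with others given in the closing section. SDs are between the 3 libraries of a group. SEs are the size of the log2 fold change divided by the square root of the F statistic of the edgeR model over all 12 libraries, which includes counting error. Between libraries of a group, chi-square per degree of freedom was 2.88 to 8.01, so no library was a copy of another.

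The members and gene lists were chosen with earlier results of these data known. From each list, up to 3 genes are named: those called in both clones against HMC-1.2 in 1 direction, at a mean of at least 1 CPM, with the largest mean change, then those called in a single comparison with HMC-1.2. LGALS3 and the neighbours of FCER1G, LAT2, MS4A2 and BTK were named after their values were seen. Positions are from Gencode 44, matched by identifier. The reads were not used here.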

Additional observations from a re-analysis of the deposited data

Results flagged for a closer look

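For the gamma chain FCER1G, the change against HMC-1.2 differed between the clones by 3.214 on the log2 scale (clone 1 minus clone 2; edgeR's quasi-likelihood test, adjusted p = 2.2e-14), with all 3 libraries of clone 1 above all 3 of clone 2. For the alpha chain FCER1A it differed by -2.947 (same test, adjusted p = 2.2e-06), with all 3 libraries of clone 1 below all 3 of clone 2. FCER1A passed the filter on low counts only through HMC-1.2 and clone 2, and clone 1 had 4 to 5 counts per library, so the test is no independent support for this difference. Both differences rest on the same 6 libraries, since HMC-1.2 cancels out of them.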

How the results depend on the processing

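Of 1436 values recomputed under 24 alternatives for 60 fold changes of the 10 genes, 1385 kept their direction and their side of the threshold. The number of the 10 genes called was 5 to 6 for clone 1 and for HMC-1.1 and 4 to 5 for clone 2 against HMC-1.2, 0 for clone 1 against HMC-1.1, 2 for clone 2 against HMC-1.1, and 2 to 3 between the clones. MS4A2 was not called by limma on log2(FPKM + 1), with or without the filter, at log2 fold changes of -0.275 (clone 1), -0.318 (clone 2) and -0.283 (HMC-1.1), where the pseudocount is larger than the values. LAT2 between the clones was called in 7 settings (0.664 by DESeq2, 0.667 without the filter, 0.99 by limma on log2(FPKM + 0.1), and without HMC-1.1 replicate 1 or 2, clone 1 replicate 1 or clone 2 replicate 3, from 0.666 to 0.888); the cause was not tested.

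Values that changed sign were all uncalled, and the cause was not tested. For clone 1 against HMC-1.1 they were FCER1G at -0.001 by limma under each of its 3 settings, LCP2 at -0.002 with DESeq2 size factors and -0.003 by DESeq2, and MS4A2 at 0.011 with a term for resent libraries, 0.009 by limma on log2(FPKM + 1) with and without the filter and 0.046 on log2(FPKM + 0.1). LYN between the clones was -0.008 with DESeq2 size factors, -0.01 by DESeq2 and -0.003 without the filter. Without the 3 resent libraries, an alternative chosen after seeing the data, LCP2 was -0.007 in clone 2 against HMC-1.2 and MS4A2 -0.166 between the clones. Leaving out 1 library at a time, the ranges of those that changed sign were, for clone 2 against HMC-1.1, BTK -0.029 to 0.003 and LAT2 -0.385 to 0.105; for clone 1 against HMC-1.1, FCER1A -0.175 to 0.089, LCP2 -0.023 to 0.018 and MS4A2 -0.378 to 0.106; for clone 2 against HMC-1.2, FCER1A -0.123 to 0.224 and LCP2 -0.004 to 0.041; and between the clones, LYN -0.014 to 0.008.

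With a replicate block the counts of the 10 genes called were 6, 5 and 6 against HMC-1.2, 0 and 2 against HMC-1.1 and 2 between the clones, and FCER1G in clone 1 was 5.76. Libraries of the same number did not deviate together (correlations of -0.166 to 0.24 over 18 pairs, and -0.251 to 0.25 for other numbers), so the numbers were not taken to pair the libraries.

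Over all genes, the calls against HMC-1.2 fell from 3193 to 1932 (clone 1), 2630 to 1612 (clone 2) and 2803 to 1618 (HMC-1.1) when tested against 1.5-fold (glmTreat), and to 1902, 1453 and 1514 by limma on log2(FPKM + 1). Against HMC-1.1 they fell from 161 to 9 and 61 for clone 1 (81 by DESeq2, 107 without clone 1 replicate 2) and from 1306 to 552 and 566 for clone 2, and between the clones from 2013 to 837 and 969. Depth limits FCER1A and MS4A2, with 3 to 46 counts per library, and FCER1G in HMC-1.2. By limma on log2(FPKM + 1), the relay genes called in clone 2 against HMC-1.2 fell from 6 to 2 and the transcription factors from 2 to 1 in each comparison with HMC-1.2.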
